A study of Mus musculus with 5 samples.

Results

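The genes described here are 10 mouse histone deacetylase genes, Hdac1, Hdac2 and Hdac4 to Hdac11, which belong to the zinc-dependent classes I, II and IV of the family. They were chosen by name, and each was read by every probe set that the platform annotation gives to that gene alone. This gave 18 probe sets, out of 45037 on the arrays, and 10 genes out of 18193 with a probe set of their own. Transcript levels were measured on 5 Affymetrix expression arrays, 2 with RNA of Atxn1L null hematopoietic stem cells (HSCs) and 3 with RNA of wild-type (WT) HSCs. Atxn1L null mice lack Ataxin1-like, a relative of the spinocerebellar ataxia protein Ataxin1, in all cells, and both genotypes were untreated C57Bl/6 mice, aged 6 to 8 weeks by the sample labels and 8 weeks by the methods. The cells were sorted from bone marrow as lineage negative, Sca-1+, c-Kit+, CD150+ cells of the side population, which pumps out Hoechst dye. The HSCs of each array were a pool and their RNA was amplified before labeling, and the number of mice per pool is not stated in the methods, so the p-values measure the spread between these pools. The question put to the arrays was which transcripts differ between HSCs with and without Atxn1L.

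Histone deacetylases remove acetyl groups from lysines of histones and other proteins, which in general goes with tighter chromatin and less transcription. Hdac1 and Hdac2, of class I, are closely related nuclear enzymes that work as the catalytic subunits of the Sin3, NuRD, CoREST and MiDAC co-repressor complexes, and in mice the pair is needed for the maintenance of HSCs. The class IIa members Hdac4, Hdac5, Hdac7 and Hdac9 have little catalytic activity of their own on acetyl-lysine. They sit on MEF2 transcription factors and are held in the cytoplasm by 14-3-3 proteins once kinases have phosphorylated them. Hdac6 and Hdac10 form class IIb and act largely in the cytoplasm, and Hdac11 is the sole class IV enzyme. ATXN1 family proteins bind the transcriptional repressor Capicua, and Ataxin1 has also been linked to histone deacetylase co-repressors.

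Of the 10 genes, Hdac2 was higher and Hdac5 was lower in Atxn1L null HSCs than in WT HSCs, and the other 8 did not pass in either direction. A probe set passed with an unadjusted limma p no higher than 0.05 together with a change of 1.5-fold or more, the criterion used for these arrays. The same criterion was met by a probe set of 2.3% of all genes in the higher direction and of 2.21% in the lower direction. On the probe set of highest mean for each gene, 2 of the 10 genes passed against 3% of all genes. Of the 6 family genes whose mean reached 5 in either genotype, 2 passed against 6.94% of all such genes. No probe set of the 10 genes had a Benjamini-Hochberg adjusted p under 0.05, and the lowest was 0.412 by limma. That threshold was met by 0.00286% of the probe sets that name 1 gene, and 3 of the 18 probe sets of the family had an unadjusted p of at most 0.05, against 5.59% of all probe sets. The changes of Hdac2 and Hdac5 therefore stand on unadjusted p-values.

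**Figure D1:**
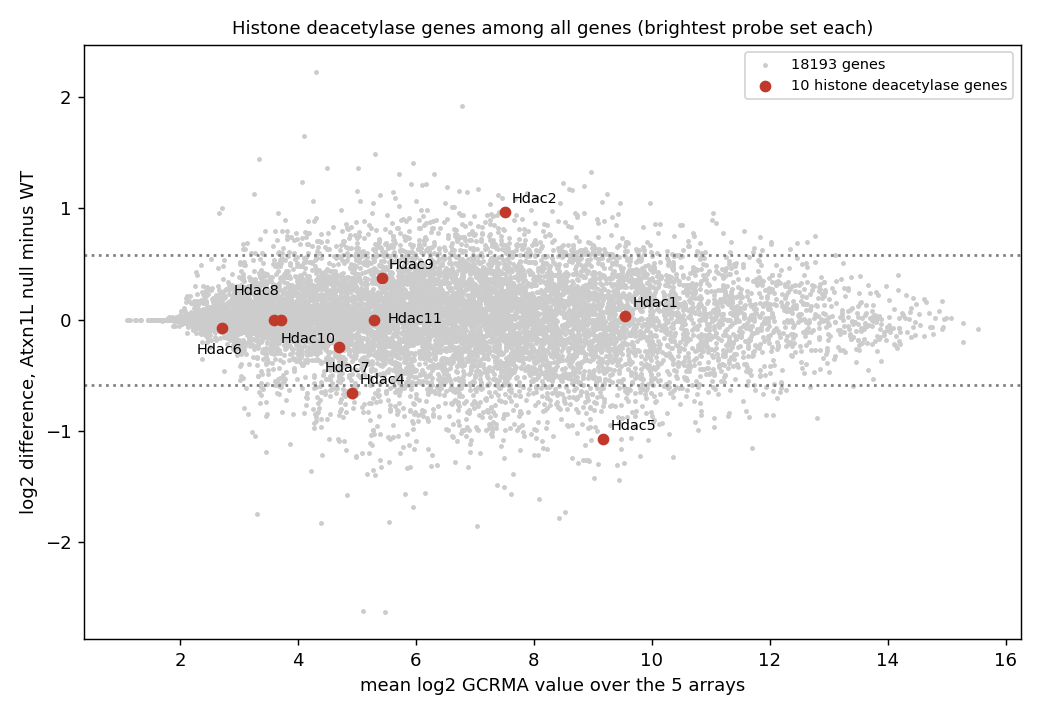
Difference between Atxn1L null and WT HSCs (log2, vertical axis) against the mean log2 value over the 5 arrays (horizontal axis) for 18193 genes in grey and the 10 histone deacetylase genes in red, each placed by the probe set with the highest mean. The dotted lines mark a fold of 1.5. Hdac2 lies above the upper line at 0.97 and Hdac5 below the lower line at -1.07, Hdac4 lies past the lower line at -0.66 without passing the test, and the other 7 genes lie between the lines.

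The promoters of the genes that passed are shown because their transcripts moved in opposite directions. Both are RefSeq sequences of build GRCm38.p6 that hold 250 bases before and 50 bases after the annotated start, given on the strand of the gene, and positions are counted from 1 at the 5′ end. Capitals mark matches to the motifs searched on both strands, which were the GC box GGGCGG, the CCAAT box CCAAT, the cAMP response element core TGACGT, the E-box CACGTG, the MEF2 core TATTTTTA and the Capicua octamers TGAATGAA and TGAATGGA. The window of Hdac2 is chr10:36974294-36974593 on the plus strand and that of Hdac5 is chr11:102230123-102230422 on the minus strand.
Hdac2 promoter: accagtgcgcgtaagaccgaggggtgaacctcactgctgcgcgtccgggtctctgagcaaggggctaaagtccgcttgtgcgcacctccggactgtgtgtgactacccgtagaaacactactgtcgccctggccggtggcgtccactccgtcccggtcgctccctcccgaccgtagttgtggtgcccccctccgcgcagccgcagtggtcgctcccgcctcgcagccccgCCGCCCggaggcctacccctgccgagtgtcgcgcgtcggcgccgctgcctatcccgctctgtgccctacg
Hdac5 promoter: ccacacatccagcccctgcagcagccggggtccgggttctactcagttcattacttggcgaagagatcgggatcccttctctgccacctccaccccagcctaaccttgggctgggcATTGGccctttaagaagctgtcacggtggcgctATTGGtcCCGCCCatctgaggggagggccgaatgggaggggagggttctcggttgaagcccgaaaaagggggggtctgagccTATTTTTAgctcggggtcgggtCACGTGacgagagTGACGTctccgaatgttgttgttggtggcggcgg
The Hdac2 window had a GC content of 69.7% and 36 CpG dinucleotides, and the Hdac5 window had 60.7% and 18, where the median over 32851 RefSeq promoters of the same length was 52.7% and 7. Hdac2 held 1 GC box, on the reverse strand at bases 231 to 236, a motif found in 35.7% of all promoters. Hdac5 held 2 CCAAT boxes on the reverse strand at bases 117 to 121 and 150 to 154, where 37.4% of all promoters held at least 1, and a GC box on the reverse strand at bases 157 to 162. It also held the MEF2 core at bases 232 to 239, the E-box at 254 to 259 and the cAMP response element core at 267 to 272. Of all promoters, 2.72% held the MEF2 core, 7.15% the E-box and 7.51% the cAMP response element core, and none of the matches in Hdac5 overlapped another. The MEF2, E-box and cAMP response element motifs were chosen after the promoter letters were seen. Their shares therefore do not tell how unusual the matches in Hdac5 are. Among the 12 promoters found for 8 of the 10 genes, Hdac9 also held the MEF2 core. The Capicua octamer TGAATGAA was in a promoter of Hdac7, and in 1.3% of all promoters, and TGAATGGA was in none of the 12, and in 1.21% of all. The matches describe letters in these windows, and the arrays hold no measurement of binding.

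The arrays themselves were alike in scale, with medians between 3.03 and 3.07 on the log2 scale. Atxn1l, the targeted gene, was lower in Atxn1L null HSCs on 2 of its 3 probe sets, by 2.75 (SE 0.30) and 2.62 (SE 0.74) on the log2 scale, and the remaining one read 1.31 to 1.33 on all arrays. Whether its probes lie in the deleted part is not known. Of 6 measured HSC markers 5 had a mean of at least 5, among them Procr, Mecom and Kit, whereas Slamf1, the gene of the sorted marker CD150, stayed below that level. The mean of these 6 markers was 8.48 on both Atxn1L null arrays and 8.46 to 8.63 on the WT arrays. Of 28 measured markers of HSCs and other blood, endothelial and stromal cells, 0 passed the criterion and 0 were free of overlap between genotypes, and all 7 measured erythroid, T and NK cell markers stayed below 5. Above 5 lay 6 markers of other cells, the granulocyte genes S100a8 and Mpo, the megakaryocyte and platelet genes Pf4 and Itga2b, the B cell gene Vpreb1 and the stromal gene Pdgfrb, with means of 8.32 to 13.7 in Atxn1L null HSCs and 7.51 to 13.4 in WT HSCs. Their part in the results was not tested. The 5′ control probe set of Gapdh read 4.63 and 4.78 in Atxn1L null HSCs, against 6.03, 6.02 and 6.11 in WT HSCs, while its 3′ control differed by -0.02. The middle Gapdh control differed by -0.84, and the 5′ and 3′ controls of beta-actin by -0.65 and 0.14, with overlap between genotypes for beta-actin. Where the histone deacetylase probe sets lie along their transcripts is not known from the files, and the part of these control differences in the results was not tested. In RNA from pooled cells, fewer cells that carry a transcript and less of it per cell cannot be told apart.

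**Figure D2:**
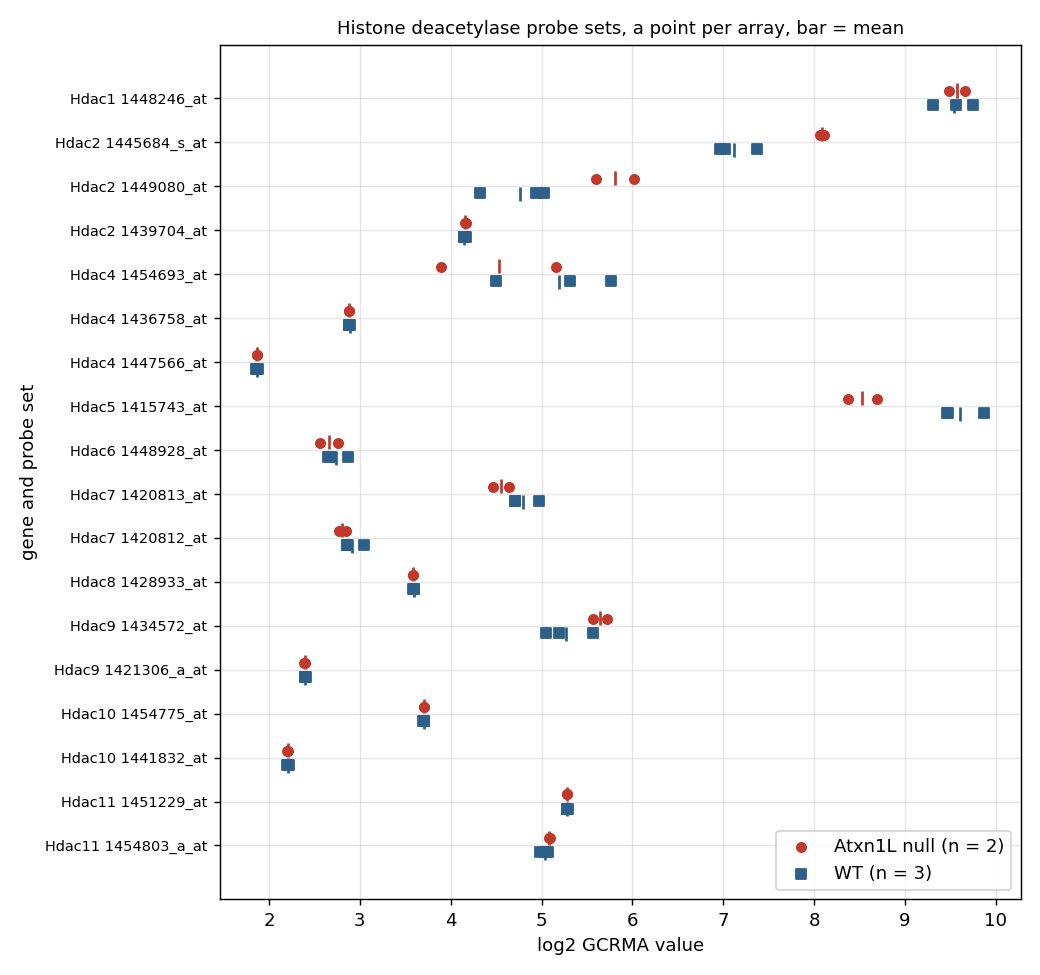
Log2 GCRMA values (horizontal axis) of the 18 probe sets of the 10 histone deacetylase genes (vertical axis), with a red circle per Atxn1L null array (2 arrays) above a blue square per WT array (3 arrays) and a short bar at each mean. The genotypes stand apart for the first 2 Hdac2 probe sets and for Hdac5. They lie side by side for both Hdac7 probe sets and for Hdac11 probe set 1454803_a_at, and 8 probe sets are level across the 5 arrays.

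Among the class I genes, Hdac2 rose on 2 of its 3 probe sets. The probe set of highest mean, 1445684_s_at, read 8.07 and 8.11 in Atxn1L null HSCs, against 6.97, 7.02 and 7.37 in WT HSCs. Every Atxn1L null array lay above every WT array, and the Atxn1L null arrays lay closer to each other than the WT arrays did. The means were 8.09 ± 0.03 (SD, n = 2) in Atxn1L null HSCs and 7.12 ± 0.22 (SD, n = 3) in WT HSCs. The difference was 0.97 on the log2 scale (SE 0.15, 95% confidence interval 0.55 to 1.38), a fold of 1.96, with an unadjusted p of 0.00334 and an adjusted p of 0.412 by limma. This probe set passed whichever of the 5 arrays was left out, with differences of 0.89 to 1.09. Its suffix means that its probes can match transcripts of more than 1 gene or variant.

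The second Hdac2 probe set, 1449080_at, was designed to the RefSeq messenger RNA and read 5.60 and 6.02 in Atxn1L null HSCs, against 5.03, 4.94 and 4.32 in WT HSCs. The genotypes again did not overlap, with WT replicate 3 the lowest of the 5 arrays. The difference was 1.04 (SE 0.29, 95% confidence interval 0.21 to 1.87), a fold of 2.06, with an unadjusted p of 0.0257 and an adjusted p of 0.737 by limma. This call was less firm, since the probe set passed in 2 of the 5 fits that left out an array. Its limma p was 0.0505 without Atxn1L null replicate 1, 0.122 without Atxn1L null replicate 2 and 0.0522 without WT replicate 2, with differences of 1.25, 0.83 and 1.13. The third Hdac2 probe set, 1439704_at, read 4.14 to 4.17 on all arrays. With a range of 0.023 over the 5 arrays, no difference in Hdac2 was detectable with that probe set.

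Hdac1, the partner of Hdac2 in the same complexes, was read by 1 probe set, 1448246_at, and did not pass. It read 9.66 and 9.49 in Atxn1L null HSCs, against 9.31, 9.75 and 9.56 in WT HSCs. Both Atxn1L null arrays fell inside the WT range. The difference was 0.03 (SE 0.16) with a 95% confidence interval of -0.41 to 0.48, which leaves room for a fold below 1.5 in either direction. RefSeq lists a processed pseudogene of Hdac1 in the mouse, and whether the probes also read it is not known. Hdac8, a class I enzyme that works without the large complexes and deacetylates the cohesin subunit SMC3, read 3.59 on average in both genotypes, with a range of 0.017 over the 5 arrays. No difference in Hdac8 was detectable with this probe set.

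**Figure D3:**
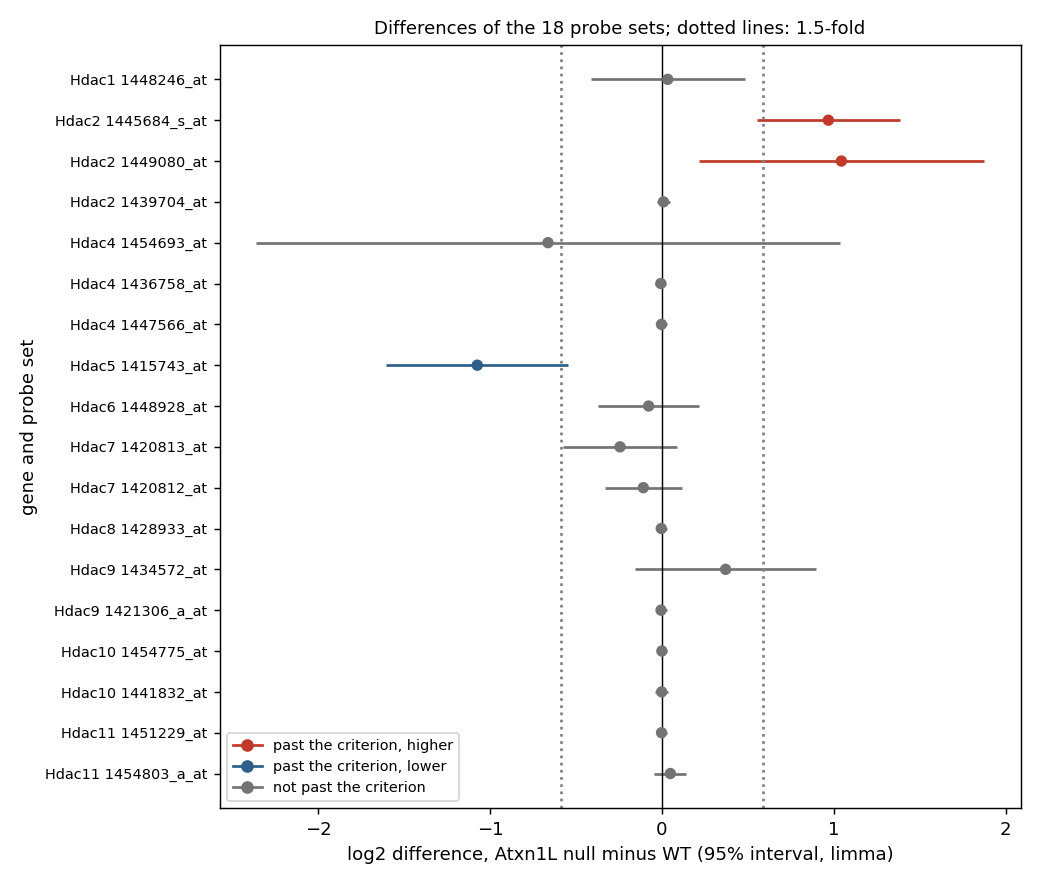
Difference between Atxn1L null and WT HSCs (log2, horizontal axis) for each of the 18 probe sets of the 10 histone deacetylase genes (vertical axis), with the 95% confidence interval from limma, with red for probe sets that passed as higher, blue for lower and grey for the rest. The intervals of the 2 Hdac2 probe sets that passed lie above 0, at 0.55 to 1.38 and 0.21 to 1.87, while that of the third Hdac2 probe set crosses 0 at -0.03 to 0.05. That of Hdac5 lies below 0 at -1.60 to -0.54, and the widest interval is that of Hdac4, at -2.36 to 1.03.

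Among the class IIa genes, Hdac5 was lower in Atxn1L null HSCs. Its only probe set, 1415743_at, designed to the RefSeq messenger RNA, read 8.37 and 8.69 in Atxn1L null HSCs, against 9.87, 9.46 and 9.48 in WT HSCs. Both Atxn1L null arrays lay below all WT arrays, with a gap of 0.78 between the groups. The means were 8.53 ± 0.22 (SD, n = 2) in Atxn1L null HSCs and 9.60 ± 0.23 (SD, n = 3) in WT HSCs. The difference was -1.07 (SE 0.19, 95% confidence interval -1.60 to -0.54), a fold of 2.11 lower, with an unadjusted p of 0.00538 and an adjusted p of 0.479 by limma. It passed whichever array was left out, with differences of -1.23 to -0.92. With a single probe set, no other part of the transcript speaks to this change. The Gapdh 5′ and middle controls were lower too, while the Gapdh 3′ control differed by -0.02 and the beta-actin controls overlapped between genotypes. Whether this bears on Hdac5 was not tested.

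Hdac4 had the widest spread of the family. Its probe set of highest mean, 1454693_at, read 3.90 and 5.16 in Atxn1L null HSCs, against 5.76, 4.50 and 5.32 in WT HSCs. Atxn1L null replicate 1 was the lowest array, and Atxn1L null replicate 2 lay inside the WT range. The difference of -0.66 (SE 0.60, 95% confidence interval -2.36 to 1.03) did not pass, with an unadjusted p of 0.332, and it depended on single arrays. It was -0.03 without Atxn1L null replicate 1, -0.38 without WT replicate 1, -1.01 without WT replicate 2 and -1.29 without Atxn1L null replicate 2, and it passed in none of these. The other Hdac4 probe sets were level, at 2.88 to 2.90 and 1.86 to 1.88 over the 5 arrays.

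Hdac7, the class IIa member known from developing T cells and from endothelium, had a small difference in 1 direction on both of its probe sets. Probe set 1420813_at read 4.64 and 4.47 in Atxn1L null HSCs, against 4.71, 4.71 and 4.97 in WT HSCs, so the groups did not overlap but came within 0.07 of each other. The difference was -0.24 (SE 0.12, 95% confidence interval -0.57 to 0.09) with an unadjusted p of 0.107. The dimmer probe set, 1420812_at, read 2.85 and 2.77 in Atxn1L null HSCs and 3.05, 2.85 and 2.85 in WT HSCs, a difference of -0.11 (SE 0.08), where the groups were apart by 0.0076. Neither passed. Averaged over both probe sets, Hdac7 had a difference of -0.18 with an unadjusted p of 0.0462, below the fold of 1.5.

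Hdac9 was the 1 class IIa gene whose difference was above 0. Its probe set of highest mean, 1434572_at, read 5.56 and 5.72 in Atxn1L null HSCs, against 5.19, 5.57 and 5.05 in WT HSCs. WT replicate 2 lay level with Atxn1L null replicate 1, and the other WT arrays lay below. The difference was 0.37 (SE 0.19, 95% confidence interval -0.16 to 0.90) with an unadjusted p of 0.121, and the other Hdac9 probe set read 2.39 to 2.41 on all arrays.

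The class IIb and class IV genes did not pass. Hdac6, the deacetylase of alpha-tubulin, read 2.76 and 2.56 in Atxn1L null HSCs, against 2.65, 2.69 and 2.87 in WT HSCs. The groups overlapped, and the difference was -0.08 (SE 0.10). Hdac10, which acts on acetylated polyamines, read 3.70 to 3.71 and 2.20 to 2.22 on its probe sets, with ranges over the arrays of 0.012 and 0.022. No difference in Hdac10 was detectable with these probe sets. Hdac11, an enzyme that removes long fatty acyl groups from lysines, read 5.28 to 5.29 on its probe set of highest mean. With a range of 0.0063 over the arrays, no difference in Hdac11 was detectable with that probe set. The other Hdac11 probe set, 1454803_a_at, read 5.09 and 5.08 in Atxn1L null HSCs, against 5.05, 5.07 and 4.99 in WT HSCs. The groups were apart by 0.0074, and the difference of 0.05 (SE 0.03) did not pass.

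Over the whole family, 6 of the 18 probe sets were higher and 12 lower in Atxn1L null HSCs by any amount, and the 15 that did not pass had differences of -0.66 to 0.37. The median difference was -0.0034 over the 10 genes and -0.0019 over all genes, while the median size of the difference without its sign was 0.16 for the 10 genes and 0.043 for all genes. Of the 10 genes 6 reached a mean of 5 in either genotype, against 39.8% of all genes. The median sizes were not compared among genes of like mean, so they do not show a larger change in the family. On the probe set of highest mean, the genotypes did not overlap for 3 of the 10 genes, Hdac2, Hdac5 and Hdac7, where 17.5% of all genes had no overlap. Hdac11 had no overlap on its dimmer probe set. Among genes with a mean of at least 5, again by the probe set of highest mean, overlap was missing for 2 of the 6 members and for 33.8% of all genes. At that level, lack of overlap was about as frequent in the family as among all genes, though 6 genes allow no close comparison. A range of less than 0.05 over the 5 arrays, a limit chosen after the values were seen, was found for 8 of the 18 probe sets and for 38% of all probe sets.

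**Figure D4:**
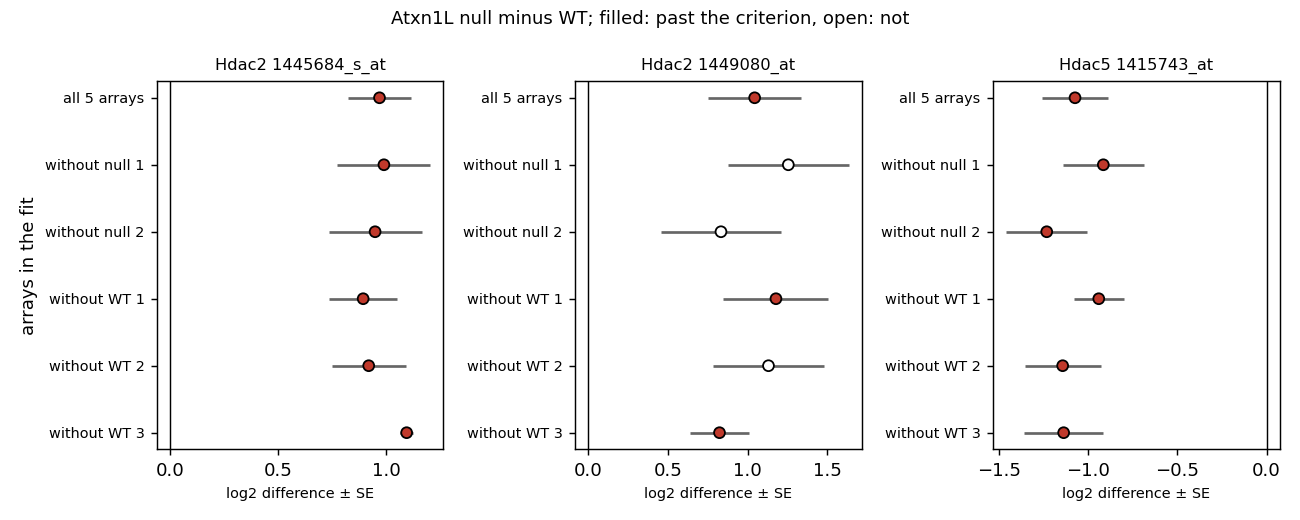
Difference between Atxn1L null and WT HSCs (log2, horizontal axis, bars show the SE) with all 5 arrays and with each array left out in turn (vertical axis), for the 3 probe sets of Hdac2 and Hdac5 that passed. Filled points passed the criterion and open points did not. Hdac2 probe set 1445684_s_at stays at 0.89 to 1.09 and Hdac5 at -1.23 to -0.92 with filled points throughout, whereas Hdac2 probe set 1449080_at has 3 open points.

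Close relatives within the family were compared array by array, by taking the difference of their log2 values on each array, so that a change of the whole array cancels. Hdac2 minus Hdac1 changed by 0.93 between Atxn1L null and WT HSCs, and every Atxn1L null array lay above every WT array. Hdac5 minus Hdac7 changed by -0.83 and Hdac5 minus Hdac9 by -1.44, again without overlap, with Atxn1L null arrays below WT arrays. Each of these had a two-sided exact permutation p of 0.1, which is the smallest that 2 against 3 arrays can give, and 0.133 after adjustment over the 4 pairs compared. Hdac5 minus Hdac4 changed by -0.41 with overlap, with an exact permutation p of 0.6. Each pair starts with Hdac2 or Hdac5, the genes that had passed on these same arrays. A gap between genotypes in these pairs is therefore no further support for the changes of Hdac2 and Hdac5. No exact permutation p reached 0.05, which the design does not allow.

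Of the 4 complexes in which Hdac1 and Hdac2 work, 1 of 35 measured genes passed the criterion, 2.86%, where 3% of all genes did. Most of these 35 genes had a mean of at least 5 in either genotype, a level at which 6.94% of all genes passed. Each gene of these lists was read by its probe set of highest mean. In the Sin3 complex, a general co-repressor, 0 of 16 measured genes passed on that probe set and the median difference was -0.0022. Its Suds3, a scaffold subunit, read 7.09 and 7.75 in Atxn1L null HSCs against 8.83, 7.86 and 8.52 in WT HSCs. The difference was -0.98 (SE 0.40, unadjusted limma p 0.0719), without overlap. The dimmer Suds3 probe set, not counted here, did pass, at -0.76 (SE 0.06, adjusted p 0.284 by limma). Sap30 had a difference of 0.87 (SE 0.59) with overlap. In the NuRD complex, which joins deacetylation to nucleosome remodeling, 1 of 9 genes passed, with a median of -0.02. This was Chd3, a remodeling ATPase, which read 9.28 and 10.06 in Atxn1L null HSCs, against 10.87, 10.46 and 10.77 in WT HSCs. The difference of Chd3 was -1.03 (SE 0.30, adjusted p 0.761 by limma), and it passed in 2 of the 5 fits that left out an array. Its relative Chd4 had a difference of -0.62 (SE 0.40) with overlap.

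The CoREST complex, which pairs deacetylases with the histone demethylase Kdm1a, had 0 of 8 measured genes past the criterion and a median of 0.22. Kdm1a had a difference of 0.47 (SE 0.29) and the scaffold gene Rcor3 of 0.42 (SE 0.15), Rcor3 without overlap. Of the 4 symbols listed for the MiDAC complex, known from mitotic cells, 2 matched a measured gene and neither passed. Dnttip1 read 9.31 and 9.30 in Atxn1L null HSCs, against 9.92, 9.58 and 9.61 in WT HSCs, without overlap, a difference of -0.40 (SE 0.12) that was below the fold of 1.5. Mideas had a difference of 0.32 (SE 0.37). Of the NCoR and SMRT complex, which class IIa proteins bind, 3 of 5 listed genes were measured and 0 passed, with differences of 0.18 for Tbl1x and -0.11 for Tbl1xr1.

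Among the 18 partners and kinases of class IIa deacetylases, which are MEF2 factors, 14-3-3 proteins and kinases of the protein kinase D, SIK and CaMK families, 2 passed, both higher, and the median was 0.0039. Ywhah, the 14-3-3 eta protein, read 7.65 and 7.73 in Atxn1L null HSCs, against 6.98, 6.87 and 7.19 in WT HSCs. Its difference of 0.68 (SE 0.11, adjusted p 0.448 by limma) passed whichever array was left out. Prkd2, protein kinase D2, read 6.34 and 6.16 in Atxn1L null HSCs, against 5.77, 5.70 and 5.13 in WT HSCs, a difference of 0.72 (SE 0.24, adjusted p 0.850 by limma). This Prkd2 probe set passed in 0 of the 5 fits that left out an array, and another of its 5 probe sets also passed, at 0.62. Sik1 had a difference of -0.95 (SE 0.51) and Mef2a of -0.87 (SE 0.68), and neither passed.

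Over all 8 lists, which include the sirtuins and the histone acetyltransferases, 4 of 73 measured genes passed, 5.48%, where 3% of all genes did. With the mean held to at least 5, 4 of 56 listed genes passed, beside the 6.94% of all genes at that level. A further 7 probe sets of listed genes passed that were not the probe set of highest mean, 2 higher and 5 lower, each of another gene. How many such probe sets were read was not counted, so the 7 have no share of their own. Over all probe sets, 1074 of 45037 passed. By any probe set, 2.3% of all genes passed as higher and 2.21% as lower. Of the 7, those of the class IIa partners were Ywhaq at -0.96, Ywhae at 0.83, Mef2c at -0.64 and the second of Prkd2. That of the Sin3 complex was Suds3 at -0.76. The probe sets of highest mean of these genes did not all go the same way, with -0.01 for Ywhaq, 0.22 for Ywhae and 0.59 for Mef2c, the last without overlap between genotypes. Apart from Prkd2 and Suds3, which the naming rule had given, these genes are named here after their values were seen.

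**Figure D5:**
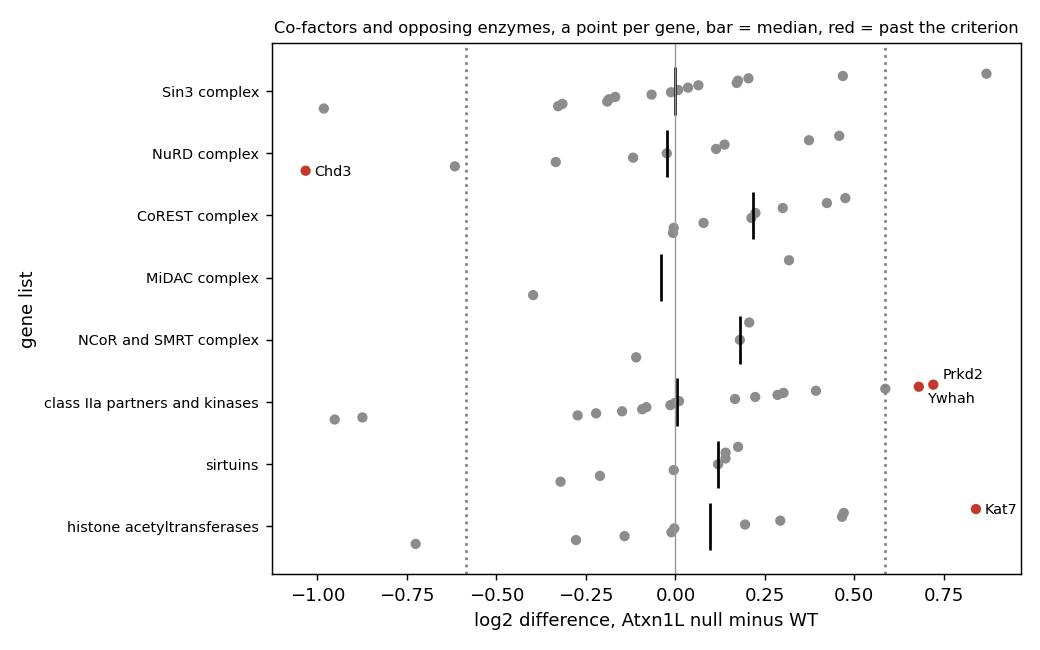
Difference between Atxn1L null and WT HSCs (log2, horizontal axis) of the genes of 8 lists (vertical axis), a point per gene read by its probe set of highest mean, a bar at the median of each list, dotted lines at a fold of 1.5 and genes that passed in red. Chd3 lies at -1.03, and Ywhah, Prkd2 and Kat7 lie at 0.68, 0.72 and 0.84, while the list medians lie between -0.04 and 0.22.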

How the data were processed

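RNA of pooled, sorted HSCs was measured on 5 arrays. The authors made the deposited log2 values with GCRMA, which corrects background by probe sequence, applies quantile normalization and summarizes each probe set. The version of GCRMA was not given in the sources used here. The log base was taken from how far the values reach. Each column was assigned a genotype through its sample label. The number of arrays limits the precision.

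From there, 64 control probe sets were left out, no dim probe set was removed, and a mean per genotype was fitted to 45037 probe sets by limma 3.58.1 (lmFit, then eBayes, default settings, R 4.3.3, 3 residual and 0.771 prior degrees of freedom), with Benjamini-Hochberg adjustment over all of them. Of these probe sets 34945 named 1 gene, 932 named several and 9160 named none in the platform annotation, in which 0 symbols changed on matching to RefSeq by Entrez ID. A gene passed if a probe set of that gene alone had p no higher than 0.05 with a change of 1.5-fold or more. In the lists, a gene was counted by its probe set of highest mean. Genes named were all 10 members and, from each list, those that passed on the probe set of highest mean and the 2 with the largest difference among genes with a mean of at least 5. The members, lists and motifs were chosen with earlier results of these data known, and the MEF2, E-box and cAMP response element motifs after the promoter letters were seen. A further member of the family is not reported here. The fit was tested on simulated data. Alternatives were array weights, robust estimation with a variance trend, centring on medians, repeated quantile normalization, filters on dim or cross-hybridizing probe sets, other rules for several probe sets of a gene, other folds, a block for the replicate number, and omission of each array. Promoter sequences came from RefSeq.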

Additional observations from a re-analysis of the deposited data

How the results depend on the processing

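Hdac2 passed as the 1 histone deacetylase gene higher, and Hdac5 as the 1 lower, with all arrays, under each alternative without a block and without any single array. No pairing is documented for the replicate numbers, WT replicate 3 has no partner, and same-numbered arrays deviated with correlations of -0.03 and -0.26. With the replicate number as a block, the count of histone deacetylase genes lower was 0, Hdac5 differed by -1.14 and the second Hdac2 probe set by 0.82, neither passing, and 243 genes of the whole array were higher. The block also turned the sign of Hdac8 to 9.8e-05 and of Hdac10 to 0.0024. Array weights gave 606 genes lower, against 402 in the fit reported, and turned Hdac1 to -0.18 and Hdac4 to 0.031. Renewed quantile normalization turned Hdac11 to 0.0048 and averaging the probe sets of a gene turned it to 0.023, with 115 genes higher and 142 lower. Reading each gene by its probe set of highest mean gave 260 genes lower, no fold minimum gave 1133 higher and 787 lower, and a fold of at least 2 gave 43 higher and 103 lower and ended the call of Hdac2 probe set 1445684_s_at, though not of the second. Without 1 array, genes higher numbered 291 to 893, the most without Atxn1L null replicate 2, and genes lower 249 to 598, the fewest without WT replicate 1. Leaving out an array also changed the sign of Hdac1 (-0.080 to 0.14), Hdac6 (-0.18 to 0.023), Hdac8 (-0.0086 to 9.8e-05) and Hdac10 (-0.0035 to 0.0024), none of which passed. The cause was not tested. With 2 and 3 arrays, a probe set near background gives no bound on its gene.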

Other observations

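Enzymes that share or oppose the task of the histone deacetylases were read on the same arrays. Among the 7 sirtuins, which deacetylate proteins with NAD as co-substrate, 0 passed the criterion and the median difference was 0.12. Sirt7, a nucleolar sirtuin, read 6.99 and 6.97 in Atxn1L null HSCs, against 7.30, 7.35 and 7.25 in WT HSCs, with no overlap. The difference was -0.32 with an SE of 0.03, an unadjusted p of 0.00093 and an adjusted p of 0.344 by limma, below the fold of 1.5 that the criterion asks for. Sirt2, the cytoplasmic sirtuin, had a difference of -0.21 (SE 0.10), also without overlap.

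Among the 10 histone acetyltransferases, which add the marks that deacetylases remove, 1 passed and the median difference was 0.10. Kat7, an enzyme that acetylates histone H3 and H4 and acts at replication origins, read 7.19 and 7.48 in Atxn1L null HSCs, against 6.49, 6.46 and 6.55 in WT HSCs. Its difference was 0.84 (SE 0.10, adjusted p 0.346 by limma), and it passed whichever array was left out, at 0.69 to 0.99, while its other 2 probe sets did not pass. Kat6a, a related enzyme needed for HSCs in mice, had a difference of -0.73 (SE 0.43) with overlap. Of the acetyltransferase probe sets that were not of highest mean, 1 each of Crebbp and Kat2b passed in the lower direction, at -0.98 and -1.42. The probe set of highest mean of Crebbp had a difference of -0.28, and that of Kat2b one of 0.47 in the opposite direction and without overlap, and neither passed. Both were named after their values were seen.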
